A study of Mus musculus with 4 samples.

Results

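The comparison pairs the DNA methylation maps of fathers' sperm with those of offspring islets, either within 1 paternal condition or across conditions. Its members are all autosomal regions in which any of 4 deposited peak lists held a peak, with overlapping peaks joined into a single union region. There were 301550 such regions of 307189 on all chromosomes. A matched pair is control sperm with islets of control offspring, or T2D (type 2 diabetes model) sperm with islets of T2D offspring. A crossed pair joins control sperm with islets of T2D offspring, or T2D sperm with islets of control offspring. For offspring and islets, T2D and control name the condition of the father and not that of the pups. The rule that defines the members uses the presence of a peak in any list and no measured difference.

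The assay was MeDIP-seq, an antibody-based map of methylated DNA, in ICR mice, an outbred strain. T2D founder males had a diet with 33% of energy as fat and were injected with a low dose of streptozotocin, a toxin of beta cells, at 12 weeks of age. Those with fasting glucose between 7 and 11 mM over the next 4 weeks formed the T2D group, and control founders had a control diet. Both kinds of founder were mated at 16 weeks with females on standard diet. Sperm came from 6 control and 6 T2D founders aged 16 weeks, after somatic cells had been lysed. Islets were taken at 3 weeks of age, from 6 pups with a control father and 6 with a T2D father. Each group had 1 library. The labels leave unsaid whether the 6 animals of a group were pooled, what sex the offspring were, and whether the sperm donors sired the sampled offspring, so pairs are matched by paternal condition and not by family. With 1 library per group no difference between pairs has a replicate check, and no test was made.

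In mammals a methyl group on cytosine, mostly next to guanine, is copied at cell division and marks much of the genome outside active promoters. Mature sperm DNA is heavily methylated. After fertilisation most of the paternal methylation is removed and a new somatic pattern is laid down, while imprinted loci and some repeats keep their mark. Pancreatic islets hold the insulin-producing beta cells among other endocrine cells, and they form well after that erasure. In MeDIP-seq an antibody against 5-methylcytosine pulls down sheared DNA, and a peak marks an interval in which sequenced tags are dense. A bulk library averages over its cells, so a change in the methylation of all cells and a change in the make-up of the cells cannot be told apart. Genes at the regions, and the tissues' own marker genes, were not analysed here because the files use the mouse build mm9 and no annotation of that build was used. For the same reason no sequence is shown.

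The autosomal lists held 175523 peaks in control sperm, 176823 in T2D sperm, 164458 in islets of control offspring and 163824 in islets of T2D offspring. They covered between 158.5 and 194.3 Mb. Tags summed over the peaks were 10992137 and 10972389 in control and T2D sperm, and 8107950 and 8077079 in control and T2D islets. The 2 conditions therefore had nearly equal numbers of tags within each tissue, and sperm had more than islets. Sequencing depth is stated for sperm only, at 31053754 unique tags for control and 31833988 for T2D. Intervals are 95% Wilson intervals of counting error alone. They are too narrow where tags are PCR copies or regions are neighbours.

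Sperm and islets shared about 2 regions in 5, and which condition the islets came from made almost no difference to that share. Control sperm and control islets shared 98147 regions, which was 40.9% of the regions called in either (40.7% to 41.1%). Control sperm and T2D islets, a crossed pair, shared 97921 regions, also 40.9% of either (40.7% to 41.1%). T2D sperm and T2D islets shared 96151 regions, 39.6% of either (39.4% to 39.8%), and the crossed pair of T2D sperm and control islets shared 96221, likewise 39.6% (39.4% to 39.8%). The pairs thus fell into couples by their sperm library, not by matching. For control sperm the matched pair was larger by less than the width of the counting interval, and for T2D sperm the crossed pair held more shared regions, at an equal percent to 3 digits. Overlap within a tissue was higher than in any sperm-islet pair: the sperm libraries shared 122393 regions (53.6% of either, 53.4% to 53.8%) and the islet libraries 110487 (51.2%, 51.0% to 51.4%).

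**Figure D1:**
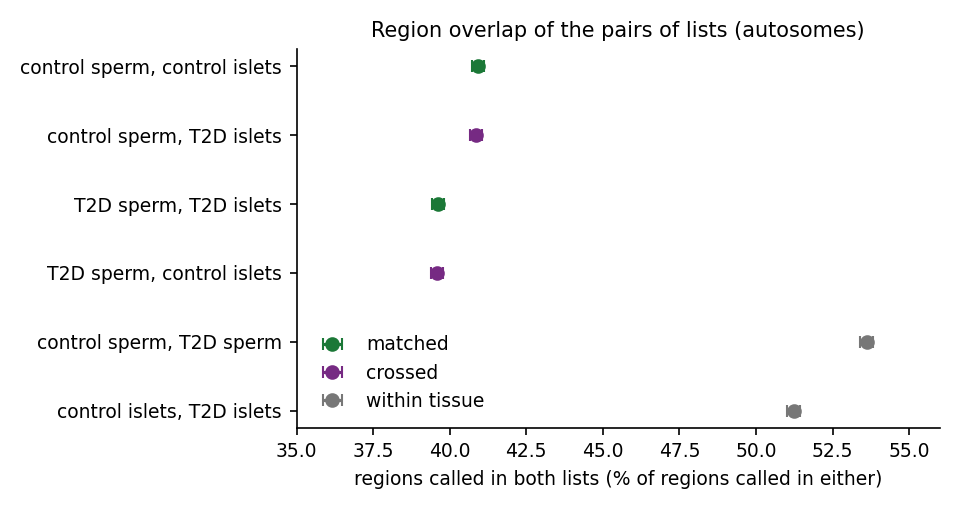
Regions shared by each pair of libraries as a percent of the regions called in either, with 95% Wilson intervals (counting error only). Matched pairs lie at 40.9% and 39.6%, crossed pairs at 40.9% and 39.6%, and pairs within a tissue at 53.6% and 51.2%.

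Expressed against each list, the same order held. Of the control sperm regions, 56.2% were called in control islets and 56.1% in T2D islets. Of the T2D sperm regions, 54.6% were called in T2D islets and 54.7% in control islets. Read from the islet side, 60.1% of control islet regions and 60.1% of T2D islet regions were called in control sperm, against 58.9% and 59.0% in T2D sperm. Both islet libraries therefore shared a little more with control sperm, whichever father the offspring had. Counted in bases, the matched pairs shared 87.0 Mb (control) and 87.2 Mb (T2D), and the crossed pairs 89.3 Mb (control sperm with T2D islets) and 84.9 Mb (T2D sperm with control islets). The larger base overlaps went with control sperm and with T2D islets, whose peaks covered 164.1 Mb against 158.5 Mb in control islets. Over both pairs of a kind, matched minus crossed came to -0.0688 Mb of 174.2 Mb.

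Summed over both pairs, matched overlap was 194298 regions and crossed overlap 194142. The difference of 156 regions was 0.0804% of the crossed sum. It arises only from regions called in exactly 1 library of each tissue, since every other pattern of calls adds equally to both sums. There were 27040 of these. Of them, 6829 were called in control sperm and control islets, 6769 in T2D sperm and T2D islets, 6637 in control sperm and T2D islets, and 6805 in T2D sperm and control islets. The share with the same condition in both tissues was 50.3% (49.7% to 50.9%), an interval that includes 50%. The T2D lineage alone, 6769 regions, lay between the crossed counts of 6637 and 6805.

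Calls found in 1 condition only were common in each tissue. Of the regions called in sperm, 22.9% were called in the control library only and 23.5% in the T2D library only, and of those called in islets, 24.5% and 24.3%. Among the 52273 control-only sperm regions, 34.5% (34.1% to 34.9%) were called in control islets and 34.1% (33.7% to 34.5%) in T2D islets. Among the 53609 T2D-only sperm regions, 30.0% (29.6% to 30.4%) were called in T2D islets and 30.1% (29.7% to 30.4%) in control islets. Knowing which sperm library held the call moved the islet share by about 4 percentage points, in both islet libraries alike, while matching moved it by less than 1. The islet side showed no such step: regions called only in control islets were called in control sperm at 40.9% and in T2D sperm at 40.8%, and those called only in T2D islets at 40.7% and 41.0%. Regions with all 4 calls numbered 65368 (21.7% of members). They were wider, with a median of 1389 bp, and held a median of 57 tags per call, against 1014 bp and 36 tags for the control lineage and 997 bp and 34 tags for the T2D lineage. The crossed patterns were close to these, with 1006 bp and 35 tags (control sperm, T2D islets) and 1008 bp and 35 tags (the reverse). Width here spans all joined peaks, so part of the greater width of regions with all 4 calls follows from joining more peaks.

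By chromosome, the share of regions with the same condition in both tissues ran from 46.2% on chromosome 16 (43.1% to 49.3%, 1005 regions) to 54.3% on chromosome 9 (51.7% to 56.9%, 1418 regions). It was above 50% on 11 of 19 autosomes. The interval excluded 50% on 5 of them, with chromosomes 2, 9, 11 and 12 above and chromosome 16 below. Chromosome 2 stood at 52.4%, chromosome 11 at 52.6% and chromosome 12 at 53.3%, so on none of these did more than 55% of the regions match. Stronger calls showed no higher share beyond the counting intervals. Where the weaker of the 2 calls ranked from the 75th to the 90th percentile of its list by the authors' score, 101 of 195 regions matched (51.8%, 44.8% to 58.7%), and above the 90th percentile 4 of 10 did (40%, 16.8% to 68.7%). Where the smaller of the authors' enrichments was between 8 and 10, the share was 46.9% (44.5% to 49.4%, 1597 regions), so crossed calls were the more frequent there. In the other 5 enrichment classes, and in 4 equal classes of region width (49.8% to 51.1%), every interval included 50%.

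**Figure D2:**
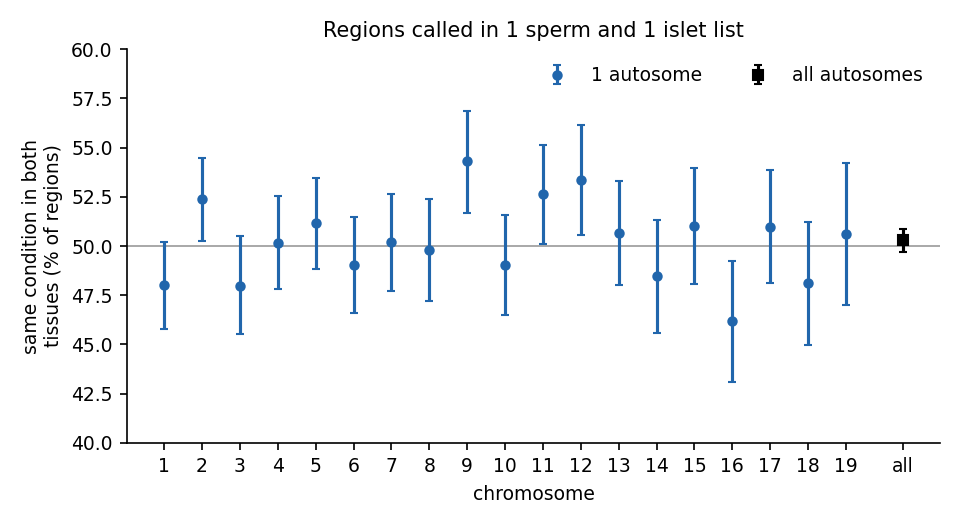
Percent of regions called in exactly 1 sperm and 1 islet library whose calls came from the same paternal condition, by autosome, with 95% Wilson intervals. Values run from 46.2% on chromosome 16 to 54.3% on chromosome 9 around the 50.3% of all autosomes.

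Calls may also lie near each other without overlapping. Of the 27598 regions called in control sperm alone, 3.38% (3.18% to 3.60%) had a region called in control islets alone within 1000 bp, and 3.00% (2.80% to 3.20%) had one called in T2D islets alone. Of the 30728 regions called in T2D sperm alone, 3.08% (2.89% to 3.28%) had a T2D islet region and 3.02% (2.83% to 3.22%) a control islet region that near. The control lineage was thus slightly ahead of its crossed pair, and the T2D lineage was level with its own. Within 20000 bp the shares were 37.2% (matched) and 36.2% (crossed) for control sperm, and 35.8% (matched) and 36.4% (crossed) for T2D sperm. Where all 4 lists held a single peak, the highest points of the sperm and islet peaks were a median of 31 and 32 bp apart in the matched pairs and 31 bp in both crossed pairs. They lay within 50 bp in 65.8% and 64.8% of regions for matched pairs and in 65.7% and 65.3% for crossed pairs, against 70.6% between the sperm libraries and 68.5% between the islet libraries.

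The second readout was the ratio of T2D to control tags in the 65368 regions called in all 4 lists, with tags scaled to each library's total over those regions. Ratios are given on the log2 scale, where 1 is a doubling in T2D. Between tissues the signed ratios in sperm and islets had a Pearson r of -0.00256 and a Spearman rho of -0.000770. Their absolute sizes had r of 0.061 and rho of 0.038, so larger ratios in one tissue went weakly with larger ratios, of either sign, in the other. The sperm and islet ratios share no library, but all regions of a tissue share its 2 libraries, their depth and the base composition of the genome, so r is a description and carries no p-value. On single autosomes r ran from -0.064 on chromosome 7 to 0.021 on chromosome 12. The signs were equal in 32871 regions (50.3%, 49.9% to 50.7%).

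**Figure D3:**
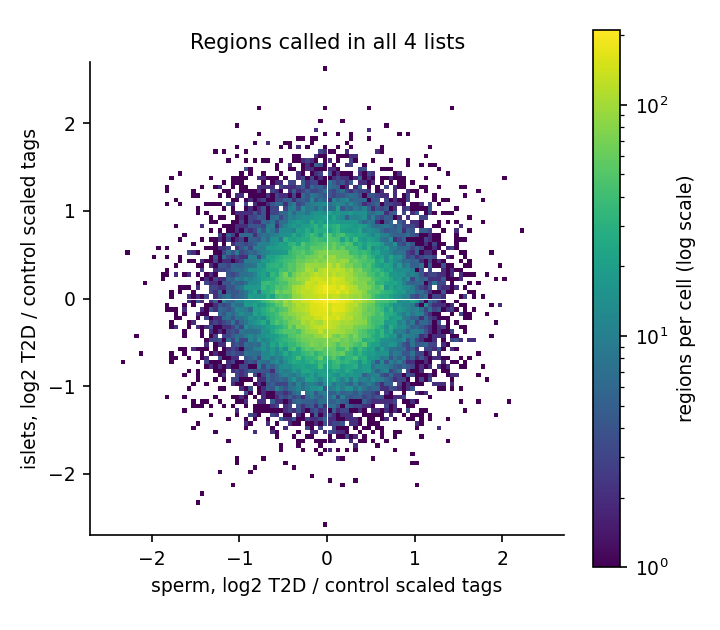
Log2 T2D over control scaled tags in islets (vertical axis) against sperm (horizontal axis) for the 65368 regions called in all 4 lists, coloured by the number of regions per bin on a log scale. The cloud is round and centred on 0, with r of -0.00256.

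The ratios themselves varied more than tag counting alone gives. The SD over regions was 0.42 in sperm and 0.46 in islets, where Poisson counting gives 0.26 and 0.31, so counting made up 38.4% and 44.3% of the variance. Much of the variation went with how wide the authors' caller had drawn the peak: within a tissue the tag ratio and the ratio of called widths had r of 0.60 in sperm and 0.61 in islets. Between tissues the width ratios had r of -0.00369 and the ratios of enrichment -0.00694. Agreement of sign was higher in the deepest regions. With at least 100 tags in every library the signs were equal in 52.4% of 3380 regions (50.7% to 54.1%), and with at least 200 tags in 85 of 142 (59.9%, 51.6% to 67.6%), where r was 0.137 and rho 0.131. Regions whose smallest count was at least 100 but below 200 tags numbered 3238 and had r of -0.00535, and r was below 0 in all 4 classes of regions under 200 tags.

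Levels, as opposed to ratios, were positively correlated between tissues in every pair, though less than within a tissue. The log2 tags per kb of called peak had r of 0.44 for control sperm with control islets and 0.41 for T2D sperm with T2D islets. The crossed pairs had 0.45 (control sperm, T2D islets) and 0.41 (T2D sperm, control islets). As with the overlap, the order followed the sperm library. Within a tissue r was 0.65 for sperm and 0.61 for islets.

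Regions at least 2-fold apart between conditions in both tissues numbered 157. As background, T2D was at least 2-fold higher in 1.38% and lower in 1.43% of the 65368 regions in sperm, and higher in 1.89% and lower in 1.75% in islets. T2D was higher in both tissues in 40 of the 157 regions and lower in both in 35. The direction was opposite in the other 82, with sperm higher and islets lower in 34 and the reverse in 48. The same direction thus made up 47.8% (40.1% to 55.5%). Multiplying the tissues' shares gives 66.7 regions, fewer than the 157, and the surplus stood in both directions. These regions were wide, with a median of 2057 bp, and 105 of the 157 were among the widest 16348 regions, those of 1824 bp or more, where the product of the shares gives 67.2. In 131 of them the called width also differed at least 2-fold in at least 1 tissue. With tags divided by the called width, 41 regions differed at least 2-fold in both tissues, 16 in the same and 25 in the opposite direction, and 2 regions passed by both measures.

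Individual regions were taken by a rule, as the 3 largest ratios in each combination of directions among regions with at least 30 tags per library. They show single libraries and have no replicate. Among the regions higher in T2D in both tissues, chromosome 2 from 177307141 to 177310153 (mm9) held 34 tags in control sperm, 96 in T2D sperm, 194 in control islets and 473 in T2D islets. Both T2D libraries were above their controls, with log2 ratios of 1.51 (counting SE 0.29) in sperm and 1.28 (0.12) in islets. Per base of called peak the ratios were 0.97 and 1.44, so this region was also denser in tags. The 2 others of that direction, on chromosome 10 from 99093027 to 99094905 and chromosome 12 from 82892345 to 82894856, had log2 ratios between 1.26 and 1.42, but per base between -0.38 and 0.07. There the T2D calls covered more bases, with about equal or fewer tags per base. On chromosome 10 each T2D library had 2 peaks in the region and each control library 1. On chromosome 12 every library had 1 peak, which was longer in T2D.

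In the regions lower in T2D in both tissues the called width differed as well. Chromosome 4 from 41584108 to 41586091 held 111 and 38 tags in control and T2D sperm and 104 and 38 in control and T2D islets, log2 ratios of -1.53 and -1.46. Per base these were -0.25 and -0.66, and each control library had 2 peaks there against 1 in each T2D library. Chromosome 17 from 5771897 to 5775075 held 116 and 43 tags in sperm and 154 and 33 in islets. Its islet ratio was -2.23 in tags and -0.0014 per base, and its sperm ratio -1.41 in tags and 0.37 per base. Its islet peak was 3179 bp long in control and 703 bp in T2D islets. Chromosome 15 from 27760168 to 27763157 had -1.48 and -1.44 in tags, and 0.02 and -0.31 per base. Control islets had 2 peaks there and T2D islets 1.

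Regions with opposite directions had ratios of about the same size. Chromosome 10 from 122831089 to 122833421 held 40 tags in control and 149 in T2D sperm, and 78 in control and 31 in T2D islets. T2D was higher in sperm by 1.91 (counting SE 0.26) and lower in islets, at -1.34 (0.31). Chromosome 1 from 107525472 to 107527870 went the other way, with 153 and 42 tags in control and T2D sperm and 46 and 107 in control and T2D islets, log2 ratios of -1.85 and 1.21. It was lower in T2D sperm per base as well, at -1.15, while its islet ratio per base was -0.11.

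Among the regions with the highest scores in all 4 lists, in contrast, those on chromosomes 2 and 9 held nearly the same tags in both conditions. Chromosome 2 from 98506165 to 98508121 held 1418 and 1421 tags in control and T2D sperm and 1756 and 1764 in control and T2D islets. Its enrichment was 6.16 and 6.35 in sperm and 4.64 and 4.5 in islets. These values lie below the list medians of 6.77 and 6.74 in sperm and 7.34 and 7.25 in islets. Chromosome 9 from 35112224 to 35113588 held 572 and 574 in sperm and 611 and 609 in islets. Log2 ratios there lay between -0.01 and 0.02. Chromosome 15 from 57251336 to 57252200 differed in sperm, with 374 tags in control and 535 in T2D (0.53), and less in islets, with 129 and 141 (0.12).

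Regions called in exactly 1 library of each tissue were ranked by the score percentile of their weaker call. The first-ranked ones had similar percentiles in matched and crossed patterns. The matched ones had fewer tags, and the smaller of their enrichments was higher. For the control lineage, chromosome 12 from 60733538 to 60734213 had 51 tags in control sperm and 32 in control islets, 12.6-fold and 12.9-fold enriched by the authors' values. For the T2D lineage, chromosome 11 from 64198696 to 64199473 had 47 tags in T2D sperm and 44 in T2D islets, 13.8-fold and 12.3-fold enriched. For control sperm with T2D islets, chromosome 7 from 151041509 to 151043061 had 75 and 77 tags, 12.2-fold and 7.32-fold enriched. For T2D sperm with control islets, chromosome 11 from 115926584 to 115927724 had 123 and 90 tags, 7.72-fold and 6.77-fold enriched. These are the first-ranked region of each pattern, and each had its weaker call at a percentile of 92.4 (control lineage), 94.8 (T2D lineage), 93.1 (control sperm, T2D islets) and 91.4 (T2D sperm, control islets) of its list. At ranks 2 and 3 the smaller enrichments of matched and crossed regions overlapped. They were 9.94 and 6.91 for the control lineage and 12.45 and 9.54 for the T2D lineage. In the crossed patterns they were 6.57 and 13.04 (control sperm, T2D islets) and 10.86 and 5.24 (T2D sperm, control islets). Chromosome 10 from 86286139 to 86287025 (control lineage) was 7.32-fold and 6.91-fold enriched in sperm and islets. Chromosome 1 from 171941529 to 171942599 (control sperm, T2D islets) was 13.5-fold and 13.0-fold enriched. The largest tag counts of the 12 named regions stood in a crossed one, chromosome 12 from 106580070 to 106581772, with 230 tags in T2D sperm and 165 in control islets.

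Where 1 tissue had calls in both conditions and the other in only 1, the direction of the single call hardly showed in the tag ratio of the first. Sperm ratios had a median of 0.037 at the 14741 regions with a control-only islet call and 0.048 at the 14707 with a T2D-only islet call. T2D was higher in 53.4% (52.6% to 54.2%) and 54.8% (54.0% to 55.6%) of them. The medians differed by 0.011, and the same difference taken on single autosomes had an SD of 0.033. Sperm regions with no islet call at all stood at 55.6% (55.0% to 56.2%), above either. Islet ratios had a median of 0.018 at the 11209 regions with a control-only sperm call and -0.0054 at the 9307 with a T2D-only sperm call. T2D was higher in 50.5% (49.5% to 51.4%) and 49.3% (48.2% to 50.3%) of these. The difference between these medians was -0.024, opposite to matching, and became -0.00097 with tags divided by called width. Taken on single autosomes it had an SD of 0.034. Both SDs give the spread between single autosomes, not the error of the difference over all of them.

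Over larger stretches, tags of the regions called in all 4 lists were summed in 1 Mb windows. In 2285 windows with at least 5 regions the sperm and islet ratios had r of 0.061 and rho of 0.031, and the signs were equal in 51.0%. Single-condition calls were also netted per window, as the percent of its regions called only in T2D minus the percent called only in control. In 2394 windows with at least 20 regions the sperm and islet net values had r of 0.023, and 1060 of 2097 windows with a nonzero value in both tissues had equal signs (50.5%). Both values reached at least 10% in the same direction in 33 windows and in opposite directions in 26.

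**Figure D4:**
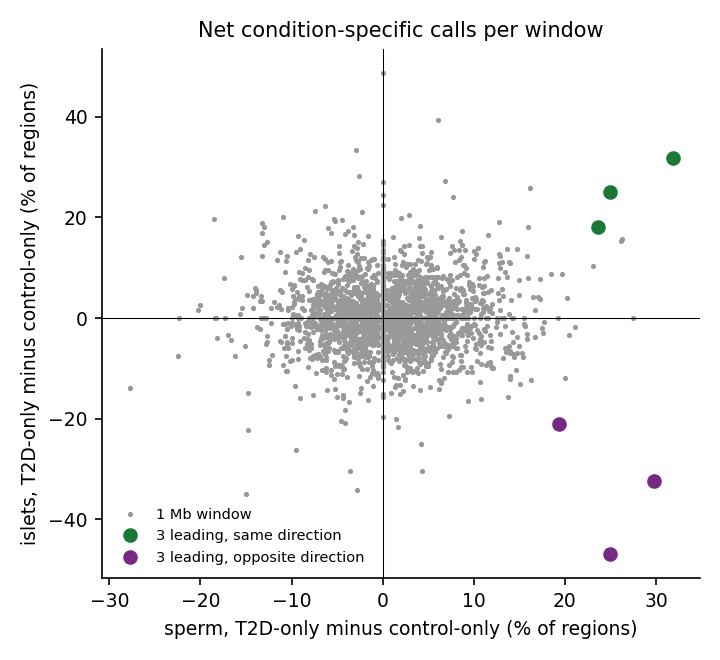
Net percent of regions called only in T2D in 1 Mb windows, islets (vertical axis) against sperm (horizontal axis), for 2394 windows with at least 20 regions. The leading same-direction window, chromosome 2 from 176 to 177 Mb, lies at 31.8% in both tissues, and the leading opposite-direction window, chromosome 6 from 68 to 69 Mb, at 29.7% in sperm and -32.4% in islets.

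The window with the largest net value shared by both tissues lay at the distal end of chromosome 2, from 176 to 177 Mb, at 31.8% in sperm and 31.8% in islets over 22 regions. Together with the next window it holds a stretch, bounded after its values were seen where the running sum of T2D-only minus control-only calls was highest, from 176548369 to 177702525 (1154 kb, 92 regions). Control sperm had a call in 12 of these regions, T2D sperm in 30, control islets in 48 and T2D islets in 79. Both T2D libraries thus held more calls than their controls. In sperm, 19 regions were called in T2D only and 1 in control only, and in islets 37 and 6. The peaks held 509 tags over 10.8 kb in control sperm and 1549 over 28.0 kb in T2D sperm, or 47.1 and 55.4 tags per kb. In islets they held 2529 tags over 44.7 kb in control and 5765 over 81.5 kb in T2D, or 56.6 and 70.7 tags per kb. Both the covered length and the density were higher in T2D in each tissue.

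The regions of this stretch that were called in both conditions pointed the same way, in the same libraries from which the stretch was picked. All 11 such regions in sperm had more scaled tags in T2D, with a median log2 ratio of 0.64 (0.07 to 1.51), and 36 of 42 did in islets, with a median of 0.71 (-0.48 to 1.83). All 5 regions called in all 4 lists were higher in T2D in both tissues, among them the region from 177307141 named above. The stretch begins with the first region of the leading window, and its distal end was set by its calls. Its counts of calls and its tag ratios are therefore a description and no support. In the remaining 34 regions of both windows, sperm had 4 called in T2D only and 7 in control only, and islets 9 and 8. Of the remaining regions called in both conditions, T2D was higher in 11 of 17 in sperm (median 0.29) and 4 of 11 in islets (median -0.15). No list held a peak in the 1546 kb before the stretch, from 175002618. The sperm peaks were called without a control library, so the copy number of this DNA in the animals and its methylation cannot be told apart.

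**Figure D5:**
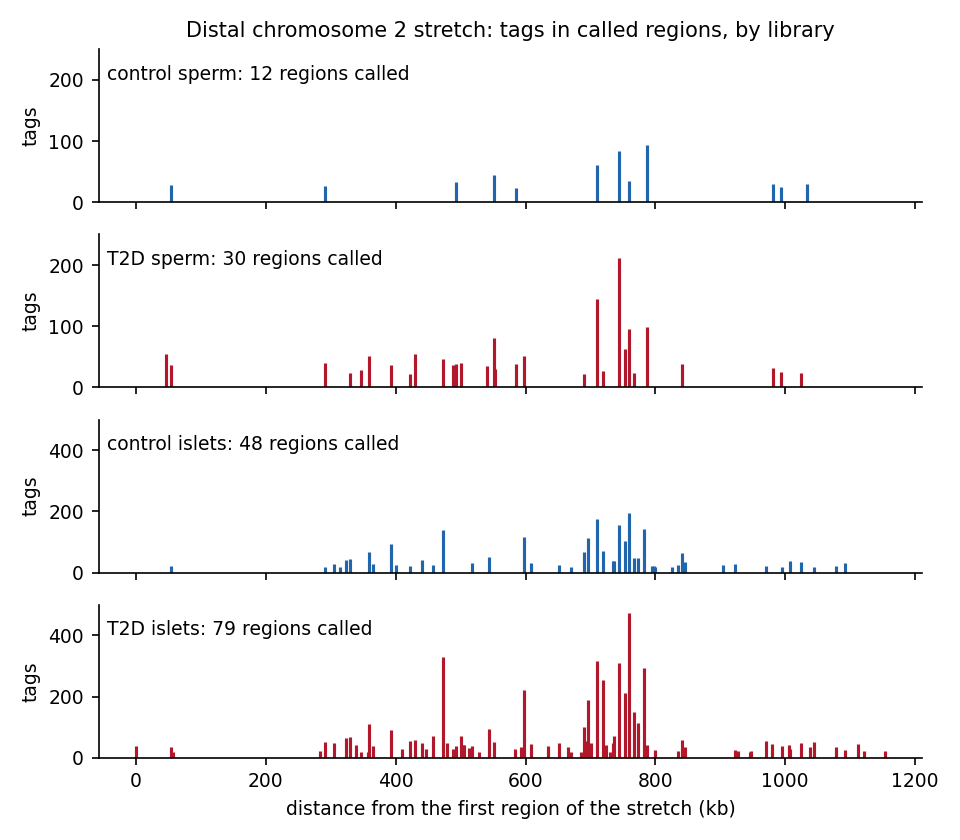
Deposited tags (vertical axis, not scaled) in each called region of the stretch on distal chromosome 2, by distance in kb from its first region, with 1 panel per library and 1 line per region; the sperm and islet panels have different vertical scales. Calls number 12 in control and 30 in T2D sperm, and 48 in control and 79 in T2D islets.

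A stretch with opposite directions was about as marked. On chromosome 6 from 68 to 70 Mb, with 69 regions, calls numbered 16 in control and 35 in T2D sperm, but 47 in control and 20 in T2D islets. Sperm had 20 regions called in T2D only and 1 in control only, and islets had 6 and 33. T2D calls were thus in excess in sperm and in deficit in islets. Tags per kb of called peak were 48.0 in control and 44.4 in T2D sperm, and 49.5 in control and 44.6 in T2D islets, so density was lower in T2D in both tissues, while calls were more in sperm and fewer in islets. On chromosome 2 from 95 to 97 Mb, with 90 regions, calls numbered 33 and 51 in control and T2D sperm and 25 and 44 in control and T2D islets, and density was nearly equal, at 50.8 and 49.2 tags per kb in sperm and 40.9 and 39.2 in islets.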

How the data were processed

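The submitters' processing notes name CASAVA 1.4 and the mouse build mm9. Per the file headers, for sperm the authors called peaks with MACS without a control library, on 49 bp tags, at a p-value threshold of 1.00e-05. The sperm headers also give a maximum of 2 duplicate tags. For the islet lists the caller was not given in the sources used here. Each list gives positions, the deposited count of tags per peak, a deposited score (10 times the negative log10 of the p-value, at least 50) and a deposited fold enrichment. Per the file headers, the sperm libraries held 34094381 (control) and 34926725 (T2D) tags. The islet depth is unknown.

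Peaks overlapping by at least 1 bp were merged, and the number of regions was checked with bedtools 2.31.1. Other values were computed with numpy 2.4.6, scipy 1.17.1 and pandas 2.3.3. Only the share of regions with the same condition and the correlation of tag ratios were tested on simulated data. That correlation was corrected for counting error, which the reported r is not. T2D over control tags were scaled by 0.988 in sperm and 1.00 in islets, the ratio of summed tags in regions of all 4 lists. Named regions were the 3 with the best weaker score percentile in each pattern of 1 sperm and 1 islet call, the 3 with the largest smaller ratio in each combination of directions among regions with at least 30 tags per library, and the 3 best scored in all 4 lists. Windows and the stretches on chromosomes 2 and 6 were picked with their values in view. The members, named-region rule and comparisons were chosen with earlier results of these data known. The planned gene and marker lists were not run, for want of an mm9 annotation. Alternatives were other merging, overlap, list sizes, tag minimums, scalings and folds.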

Additional observations from a re-analysis of the deposited data

Results flagged for a closer look

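Each of these results took opposite directions in sperm and islets in tags or in calls. The difference between the tissues was not tested, since each direction rests on 1 library per condition. The log2 T2D over control ratio in sperm minus that in islets was 2.75 on chromosome 4 from 24503459 to 24505845 (1.35 in sperm, -1.39 in islets), 3.25 at the region of chromosome 10 that starts at 122831089, and 2.77 at chromosome 13 from 55231093 to 55233600 (1.28 and -1.49). It was -3.14 on chromosome 7 from 105225371 to 105228048 (-1.77 and 1.38), -2.49 for chromosome 3 from 121174280 to 121176657 (-1.22 and 1.27), and -3.06 at the region of chromosome 1 that starts at 107525472. Per base of called peak, 3 of these 6 regions changed sign in at least 1 tissue. The values in sperm and islets were -0.53 and 0.49 on chromosome 4, and 0.10 and -0.36 on chromosome 3, where both turned, and -0.11 in islets on chromosome 1, where sperm stayed at -1.15. The other regions kept both signs, at 0.89 and -0.04 on chromosome 10, 0.18 and -0.47 on chromosome 13, and -0.35 and 0.03 on chromosome 7.

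The net percent of regions called only in T2D, sperm minus islets, was 62.2 percentage points on chromosome 6 from 68 to 69 Mb, 71.9 from 69 to 70 Mb (25% and -46.9%), and 40.4 on chromosome 13 from 85 to 86 Mb (19.3% and -21.1%). Tags of the regions called in all 4 lists took the same direction in both tissues in each of these windows. Their log2 ratios in sperm and islets were 0.36 and 0.44 over 2 regions from 68 to 69 Mb, -0.15 and -0.24 over 6 regions from 69 to 70 Mb, and 0.27 and 0.27 over 8 regions on chromosome 13. The T2D list held 1300 more autosomal peaks than the control list in sperm and 634 fewer in islets, a change of -634 there and a difference of 1934 between the tissues.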

How the results depend on the processing

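The share of regions with the same condition in both tissues stayed between 49.9% and 50.8% over 8 alternatives. Over 11 alternatives r between the tissues ran from -0.00694 to 0.00252. The lower end came from ratios of deposited enrichment. These and the ratios of called width took the place of tag ratios and were not planned. With tag ratios kept, the lowest r was -0.00293, without the leading windows on chromosome 2, an alternative also not planned. Scaling the median ratio to 1 cannot change r. Matched minus crossed overlap reached 0.573% of the crossed sum with the best 10% of each list by score and was -0.0395% in shared bases. The number of regions 2-fold apart in both tissues became 2300 at a fold of 1.5 (1128 in the same and 1172 in the opposite direction), 72 with at least 30 tags in every library, and 41 per bp of called width, where 39.0% had the same direction (25.7% to 54.3%). In windows with at least 15 regions, an alternative chosen after seeing the data, r fell to 0.0291. It was 0.046 without the leading windows on chromosome 2, also chosen after seeing the data. That left 2284 of the 2285 windows, since only the one from 177 to 178 Mb had been among them. Its log2 ratios were 0.65 in sperm and 0.71 in islets. No paired analysis was possible because each group had 1 library. Called peaks carry no tags outside calls, so a call missing from a list does not show that methylation is absent, and the depth of the islet libraries is unknown.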
